A study of Mus musculus with 6 samples.

Results

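The genes described here handle iron in the cell. They are 10 genes, Fth1, Ftl1, Ncoa4, Tfrc, Steap3, Slc11a2, Slc40a1, Ireb2, Aco1 and Hmox1, among the 56941 gene identifiers of the deposited count table. They cover storage, uptake and export of iron, the sensors of cellular iron and the release of iron from heme. The members were chosen by function, but with the difference between the groups already known, since Fth1 was among the 9 genes of the whole table that passed the test. Their differences between the groups are therefore given as descriptions. The call of Fth1 is part of how the genes were chosen and supports nothing here, and intervals show the error of a value only. Poly(A) RNA of mouse ventral hippocampus was sequenced from 3 mice labelled as overexpressing NEGR1, an IgLON cell adhesion molecule on the surface of neurons, and from 3 mice labelled as NEGR1 control. The study asked how raised NEGR1 bears on memory and on behaviour that models anxiety and depression. The sources used here do not give strain, age, how NEGR1 was raised or what the control mice received.

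Iron reaches brain cells bound to transferrin, which the transferrin receptor carries into endosomes, where iron is reduced and passed to the cytosol. Iron that is not used at once is stored inside a hollow shell of ferritin heavy and light chains, and ferroportin exports the surplus. A pair of iron regulatory proteins adjusts these steps by binding a short RNA hairpin, the iron responsive element. In the 5' UTR of ferritin and ferroportin mRNA the bound protein blocks translation, and in the 3' UTR of transferrin receptor mRNA it protects the message from decay. In the brain, oligodendrocytes and microglia are known for their large iron stores, and oligodendrocytes need iron to make myelin.

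The iron responsive elements are shown first, because they are the sequence feature that ties several members together. A search of GENCODE M21 protein-coding transcripts (build GRCm38) on the sense strand looked for a bulged C, 5 bases, the loop CAGTGN, and 5 bases that pair with the first 5, with G-T pairs allowed. It found a match in 4 of the 10 members, and in 1.34% of 21901 protein-coding genes. The match lay in the 5' UTR of Fth1, Ftl1 and Slc40a1, where 0.142% of protein-coding genes had one, and 4 times in the 3' UTR of Tfrc, where 0.589% had one. Tfrc was the only protein-coding gene with 2 or more such matches in its 3' UTR. Each is given with 6 flanking bases on either side, as DNA, 5' to 3' along the mRNA, and the capitals mark the bulged C and the loop.
Fth1, chr19:9982732-9982760, plus strand: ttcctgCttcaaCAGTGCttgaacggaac
Ftl1, chr7:45459779-45459807, minus strand: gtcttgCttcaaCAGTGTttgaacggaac
Slc40a1, chr1:45925465-45925493, minus strand: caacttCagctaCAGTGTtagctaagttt
Tfrc, chr16:32631219-32631247, plus strand: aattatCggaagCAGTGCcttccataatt
Tfrc, chr16:32631598-32631626, plus strand: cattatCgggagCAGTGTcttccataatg
Tfrc, chr16:32631663-32631691, plus strand: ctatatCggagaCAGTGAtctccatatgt
Tfrc, chr16:32631710-32631738, plus strand: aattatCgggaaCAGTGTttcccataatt
The hairpins of the ferritin chains have the same 5-base stem, which differs from those of Slc40a1 and Tfrc. Among the other iron pathway genes examined, Alas2, which encodes the first enzyme of heme synthesis in red cell precursors, also had a match in the 5' UTR. A match describes letters only, and the absence of one in Slc11a2, Ncoa4, Steap3, Ireb2, Aco1 and Hmox1 says only that this strict pattern was not found there. The counts measure mRNA and do not read translation.

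The 6 libraries held 30726110 to 38108394 counts, and 19354 genes, among them all 10 members, passed the filter on low counts. Negr1 itself stood at 185, 199 and 195 CPM (library-scaled normalised read count, one unit being a millionth of the counts of a library) in overexpression libraries and at 181, 168 and 180 CPM in control libraries, without overlap, and it did not pass the test (log2 fold change 0.13 ± 0.054, SE; edgeR adjusted p = 0.488). Markers of neurons summed to 5296 to 5323 CPM in overexpression and 5428 to 5941 CPM in control libraries, without overlap. Of these 5 markers 4 had a fold below 1, against 49.6% of all genes tested, and 0 had separate groups on their own. Markers of hippocampal neurons summed to 492 to 550 CPM in overexpression and 500 to 525 CPM in control libraries. Overexpression replicate 1 stood apart in choroid plexus markers, at a summed 723 CPM where the other 5 libraries had 23.1 to 67.8 CPM. In bulk tissue, fewer cells of a type and less RNA per cell cannot be told apart.

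In the overexpression libraries the ferritin heavy chain gene Fth1, the transferrin receptor gene Tfrc and the heme oxygenase gene Hmox1 were at 81.0%, 83.6% and 79.8% of the control mean, each without overlap between the groups. The other 7 members had overlapping groups, with folds between 0.923 for Steap3 and 1.09 for Ireb2. In edgeR's test over all genes 1 of the 10 members, Fth1, was called, against 0.0465% of all genes tested. The groups did not overlap, with overexpression lower, for 3 members, against 8.07% of all genes, and with overexpression higher for 0 members, against 7.07% of all genes. The fold was below 1 for 9 members, against 49.6% of all genes tested, and above 1 for Ireb2 alone. The median log2 fold change of the members was -0.072, against 0.0015 over all genes tested. These shares describe members that were selected with the comparison in view.

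**Figure D1:**
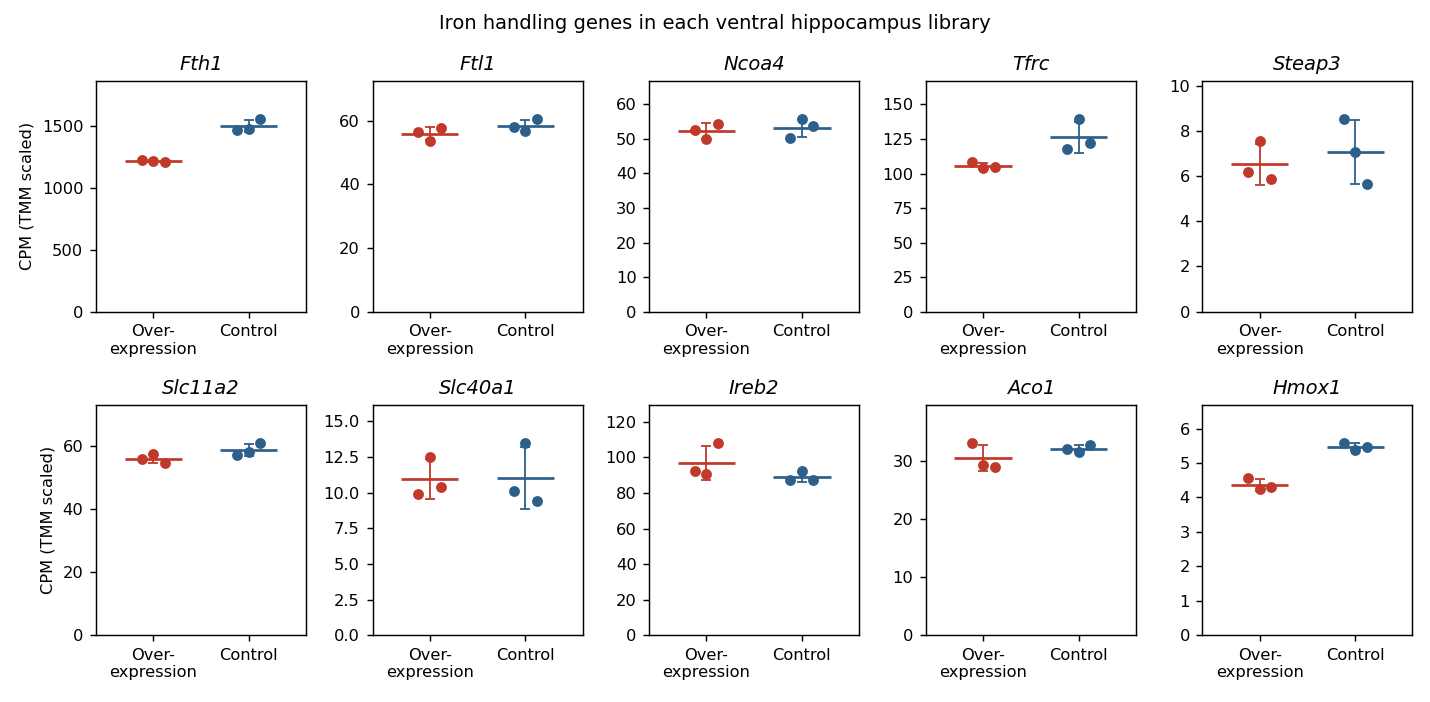
Normalised read count (CPM) of the 10 iron handling genes, with one point per library, overexpression in red on the left and control in blue on the right of each panel, and the mean with SD (n = 3 per group). The groups are apart for Fth1, Tfrc and Hmox1 and overlap for the other 7 genes.

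Of the storage genes, Fth1 (ENSMUSG00000024661) encodes the ferritin heavy chain, which oxidises iron as it enters the shell. It had 1224, 1221 and 1208 CPM in the overexpression libraries, against 1471, 1482 and 1556 CPM in the control libraries. The overexpression libraries lay close together, with a coefficient of variation of 0.685% against 3.06% in control, and the highest of them was below the lowest control by 16.5% of the control mean. The means were 1218 ± 8.34 CPM in overexpression, against 1503 ± 46.0 CPM in control libraries (SD, n = 3 each). The level was 81.0% of control, a log2 fold change of -0.30 ± 0.047 (SE), and the 95% interval of the fold was 0.755 to 0.869. The size hardly depended on any library, with log2 fold changes of -0.32 to -0.28 when each was left out, but the call did. It was lost without overexpression replicate 2 (log2 fold change -0.31) or 3 (-0.30) and without control replicate 2 (-0.31) or 3 (-0.28), and under a stricter filter on low counts.

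Fth1 was the 40th most abundant gene of the 19354 tested. Among the 235 genes at a mean of 500 CPM or more, the median coefficient of variation was 4.4% in overexpression and 4.19% in control libraries. Of these, 5 others had a log2 fold change as low as that of Fth1. Among them were Mbp and Mobp, which encode myelin proteins, Chgb, which encodes a granule protein of secretory cells, and an identifier with no symbol. Mbp was at 1492 ± 121 CPM in overexpression, against 2030 ± 220 CPM in control libraries (SD, n = 3 each), a wider spread than that of Fth1. The groups did not overlap, with overexpression lower, for 23.0% of the 235 genes.

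Ftl1, the ferritin light chain gene, whose product helps form the iron core, had 56.6, 53.6 and 57.6 CPM in overexpression libraries, against 58.0, 56.9 and 60.4 CPM in control libraries. Overexpression replicate 3 lay above control replicate 2, so the groups overlapped. The log2 fold change was -0.063 ± 0.058 (SE), with a 95% interval of the fold of 0.879 to 1.04. The level of Ftl1 is uncertain: 84.8% of the 75-base windows of its longest protein-coding transcript occurred letter for letter in 8 other annotated genes, against 2.32% for Fth1. Reads from such windows may have been left out or split at counting. The identifiers with ferritin names other than Fth1 and Ftl1 carried few counts. Ftl1-ps1 had 39, 26 and 31 counts in overexpression and 33, 28 and 14 in control libraries, Ftl2-ps had 7 in each group and Fth-ps2 had 22 against 20. Counts of the genes sharing such a window, except Gm22133, which was not matched in the count table, were then added. This step was chosen after the sequences had been compared. With it the log2 fold change of Ftl1 was -0.055 and that of Fth1 -0.30.

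Per kilobase of that transcript, Fth1 stood 14, 14.8 and 13.6 times above Ftl1 in the overexpression libraries, against 16.4, 16.9 and 16.7 times in the control libraries. The ratio averaged 14.1 ± 0.599 in overexpression and 16.7 ± 0.218 in control libraries (SD, n = 3 each), without overlap. Because Ftl1 may be undercounted and the ratio depends on the transcript lengths used, its size is less certain than its order between libraries.

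Ncoa4, the cargo receptor that takes ferritin to the lysosome, had 52.6, 49.9 and 54.2 CPM in overexpression libraries, against 50.2, 55.6 and 53.6 CPM in control libraries. The groups overlapped throughout, and the log2 fold change was -0.025 ± 0.061 (SE). A share of 41.4% of its transcript windows was also found in 1 other gene, Gm6768, and adding the counts of that gene gave -0.037.

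**Figure D2:**
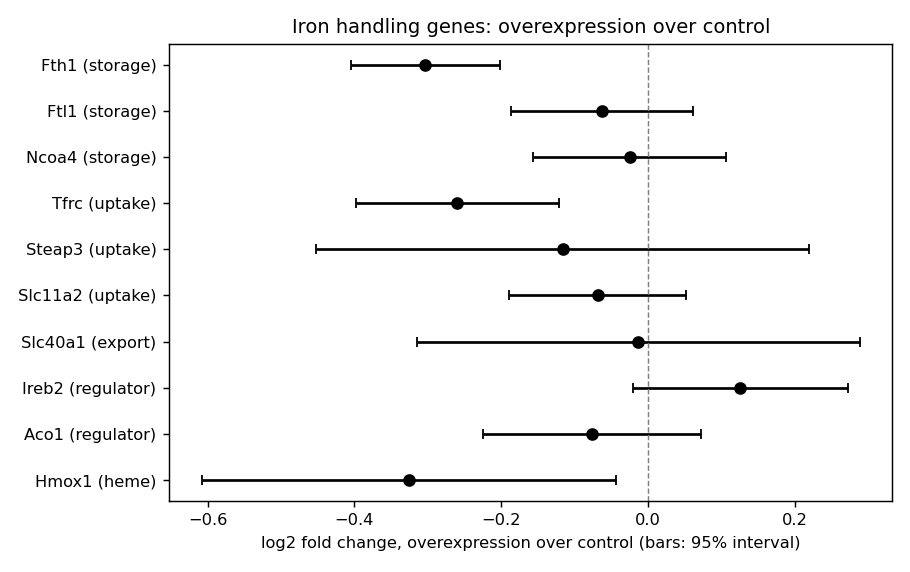
log2 fold change of overexpression over control for each member, with its role in brackets and bars for the 95% interval. Fth1, Tfrc and Hmox1 lie near -0.3, and Slc40a1, Steap3 and Hmox1 have the widest intervals.

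Of the uptake genes, Tfrc (ENSMUSG00000022797) encodes the receptor that brings transferrin-bound iron into the cell. It had 108, 104 and 105 CPM in the overexpression libraries, against 118, 139 and 122 CPM in the control libraries. All overexpression libraries were below all control libraries, the nearest being overexpression replicate 1 and control replicate 1, which were apart by 7.55% of the control mean. The means were 106 ± 2.38 CPM in overexpression, against 126 ± 11.3 CPM in control libraries (SD, n = 3 each), a log2 fold change of -0.26 ± 0.064 (SE). Control replicate 2 was the highest library, and without it the log2 fold change was -0.18.

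Steap3, a reductase of the endosome that prepares iron for transport, was among the least abundant members. It had 6.17, 7.54 and 5.85 CPM in overexpression, against 8.502, 7.05 and 5.64 CPM in control libraries. Both groups covered much the same range, and the log2 fold change of -0.12 ± 0.16 (SE) was smaller than its error. Its direction rested on control replicate 1, without which it was 0.039, while leaving out overexpression replicate 2 gave -0.23, and leaving out control replicate 3 gave -0.25. Slc11a2, also called DMT1, carries ferrous iron out of the endosome. It had 56.1, 57.5 and 54.8 CPM in overexpression, against 57.4, 58.2 and 61.1 CPM in control libraries. Only overexpression replicate 2 reached into the control range, and the log2 fold change was -0.069 ± 0.056 (SE).

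Slc40a1, which encodes the exporter ferroportin, showed no separation of the groups. It had 9.90, 12.5 and 10.4 CPM in overexpression libraries, against 10.1, 13.5 and 9.41 CPM in control libraries. The replicates within a group differed more than the groups did, and the log2 fold change was -0.013 ± 0.14 (SE). Its direction depended on single libraries, with log2 fold changes of -0.12 to 0.16 when each was left out.

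Both iron sensors had overlapping groups. Ireb2 encodes iron regulatory protein 2, which is broken down when iron is plentiful. It had 92.6, 90.4 and 108 CPM in overexpression libraries, against 87.3, 92.2 and 87.1 CPM in control libraries. Overexpression replicate 3 was the highest and overexpression replicate 2 lay within the control range, with a log2 fold change of 0.13 ± 0.068 (SE). Without overexpression replicate 3 it was 0.045. Aco1 encodes iron regulatory protein 1, which acts as cytosolic aconitase when it carries an iron-sulfur cluster. It had 32.99, 29.3 and 28.9 CPM in overexpression libraries, against 32.0, 31.5 and 32.7 CPM in control libraries. Overexpression replicate 1 was above and the other two were below all control libraries, with a log2 fold change of -0.076 ± 0.070 (SE).

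Hmox1 (ENSMUSG00000005413), the inducible heme oxygenase that frees iron from heme, had few counts but separate groups. It had 4.56, 4.24 and 4.30 CPM in overexpression libraries, against 5.57, 5.37 and 5.48 CPM in control libraries. These values rested on 153, 145 and 155 counts in overexpression and 179, 202 and 167 counts in control libraries. The means were 4.37 ± 0.172 CPM in overexpression, against 5.47 ± 0.101 CPM in control libraries (SD, n = 3 each). At such low counts these SDs can understate the error of the levels. The log2 fold change was -0.33 ± 0.13 (SE), with a 95% interval of the fold of 0.656 to 0.971 that was wider than for Fth1 or Tfrc.

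Levels of different genes were compared as CPM per kilobase of the longest protein-coding transcript. On that scale Fth1 was first at 815 ± 5.58 in overexpression and 1006 ± 30.8 in control libraries, followed by Ftl1 at 57.8 ± 2.19 and 60.4 ± 1.87 and Tfrc at 21.6 ± 0.486 and 25.8 ± 2.31 (SD, n = 3 each). Ireb2, Slc11a2, Ncoa4 and Aco1 came next, with means over the 6 libraries of 16.1, 13.03, 12.96 and 8.15 per kilobase. Slc40a1 at 3.25, Hmox1 at 3.14 and Steap3 at 1.32 per kilobase closed the order. The ranges of neighbours overlapped for Slc11a2 and Ncoa4 and for Slc40a1 and Hmox1, and did not overlap for the other 7 pairs. Divided by the length of all annotated exons instead, the first 3 places were the same, Ncoa4 stood below Aco1, and Hmox1 above Slc40a1.

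**Figure D3:**
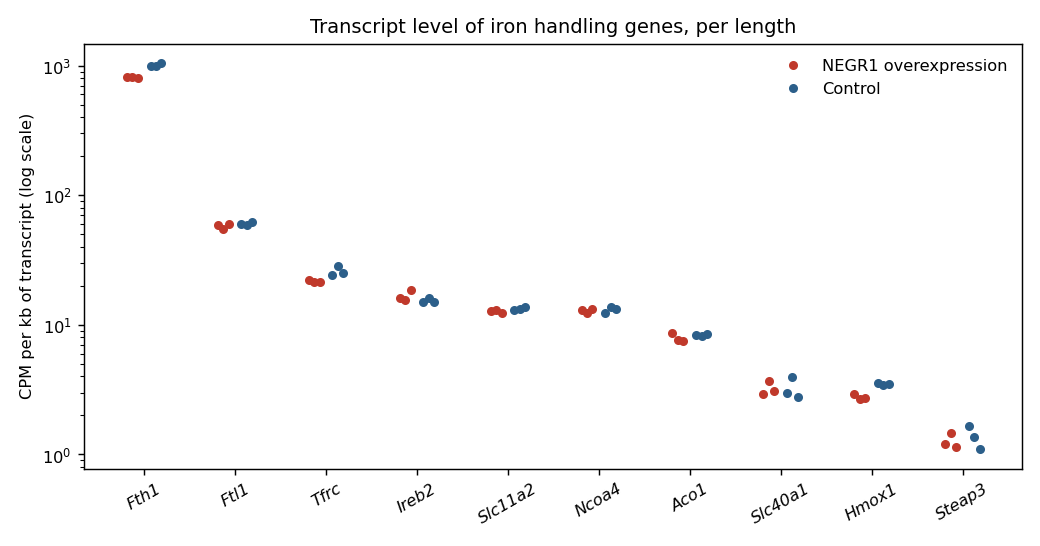
CPM per kilobase of the longest protein-coding transcript on a log axis, for the 10 iron handling genes in order of level, with one point per library (overexpression red, control blue). On this scale Fth1 lies more than 10 times above Ftl1, and Slc11a2 and Ncoa4 share a range.

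The profile most like that of Fth1 over the 6 libraries was sought among 4570 other genes at a mean of 50 CPM or more, as a description, by the root mean square difference of centred log2 CPM. The closest were Gdap1l1 (0.037), Sirt2 (0.047), Ctsa (0.053), Apoe (0.053) and Eef2k (0.055). The closest, Gdap1l1, had 54.5, 52.7 and 50.9 CPM in overexpression libraries, against 61.4, 61.1 and 65.2 CPM in control libraries. Separate groups in these genes follow from picking them by likeness to Fth1, and support nothing. Sirt2 encodes a deacetylase abundant in oligodendrocytes, Ctsa a protective protein of the lysosome and Apoe the main lipid carrier of the brain. These descriptions leave out Eef2k and the closest gene, Gdap1l1. Whether the closest genes share a cell type or pathway was not tested. Apoe had 1145, 1160 and 1065 CPM in overexpression libraries, against 1320, 1276 and 1352 CPM in control libraries. Sirt2 had 99.2, 95.2 and 93.6 CPM in overexpression, against 113, 115 and 113 CPM in control libraries.

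The rest of the iron pathway was read from 7 lists holding 103 other genes, of which 95 were tested. By edgeR's test 0 passed in either direction, and 11 of 95 had an unadjusted p under 0.05, a share close to that of all genes (1788 of 19354). DESeq2, with fewer low counts filtered out, called 3 of 102, Cp and Bmp6 higher and Trf lower, against 103 of 35633 genes over the whole table. limma-voom called 0 of the 95, against 6 of 19354 genes. Of the 95 genes, 39 had a fold above 1 and 56 below 1, where 49.6% of all genes tested lay below 1. The median log2 fold change was -0.018. The groups did not overlap for 4 of the 95 genes with overexpression higher, against 7.07% of all genes, and for 11 with overexpression lower, against 8.07%.

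Trf, the gene of transferrin, which oligodendrocytes and the choroid plexus make in the brain, was the lowest of these genes by fold. It had 192, 158 and 164.7 CPM in overexpression libraries, against 194, 256 and 229 CPM in control libraries. The groups were separate by a narrow margin between overexpression replicate 1 and control replicate 1. The log2 fold change was -0.40 ± 0.11 (SE; edgeR adjusted p = 0.385, range 8.71e-08 to 0.743 over the alternatives). Without control replicate 1 Trf passed, with a log2 fold change of -0.50 and an edgeR adjusted p of 0.0359.

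Cp encodes ceruloplasmin, the ferroxidase that works beside ferroportin. It had 26.7, 23.2 and 25.4 CPM in overexpression libraries, against 20.4, 14.9 and 18.8 CPM in control libraries. All overexpression libraries were above all control libraries, with a log2 fold change of 0.48 ± 0.11 (SE; edgeR adjusted p = 0.21, range 1.28e-05 to 0.559 over the alternatives). Bmp6, a growth factor of endothelium that induces hepcidin in the liver, had 12.5, 10.99 and 9.24 CPM in overexpression, against 8.07, 7.79 and 5.93 CPM in control libraries. Its log2 fold change was 0.58 ± 0.14 (SE; edgeR adjusted p = 0.226, range 0.000655 to 0.608). Neither Cp nor Bmp6 overlapped between the groups.

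In the uptake and chaperone list, 7 of 17 tested genes had a fold above 1 and the median log2 fold change was -0.0089. Cd163, the hemoglobin scavenger receptor of border macrophages, was at 3.55 ± 0.558 CPM in overexpression, against 2.44 ± 0.309 CPM in control libraries (edgeR adjusted p = 0.419). Slc39a14, a transporter of iron not bound to transferrin, was at 44.9 ± 1.58 CPM in overexpression, against 46.5 ± 1.33 CPM in control libraries (edgeR adjusted p = 0.832). In the export and systemic list, 5 of 8 tested genes had a fold above 1, with a median of 0.12. The genes of hepcidin, Hamp and Hamp2, were not tested, with 1 and 9 counts over the 3 overexpression libraries and 1 and 14 over the 3 control libraries. The mitochondrial ferritin gene Ftmt had 0 counts in all 6 libraries.

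The 10 regulators had a median log2 fold change of -0.0036. Fbxl5, the iron-sensing ubiquitin ligase subunit that targets iron regulatory proteins, was at 103 ± 6.58 CPM in overexpression, against 107 ± 7.33 CPM in control libraries (edgeR adjusted p = 0.847). Bach1, a heme-sensing repressor of Hmox1, was at 16.0 ± 1.17 against 17.4 ± 1.23 CPM, and Rc3h1, an RNA-binding protein that promotes decay of Tfrc mRNA, at 74.6 ± 10.4 against 69.2 ± 3.36 CPM. Neither passed, with edgeR adjusted p-values of 0.713 and 0.747.

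In the list of mitochondrial iron and iron-sulfur cluster genes, 14 of 21 had a fold below 1, with a median of -0.044. In the heme list, 9 of 15 tested genes lay below 1 (median -0.0099). Hmox2, the constitutive heme oxygenase, was at 52.1 ± 1.77 CPM in overexpression, against 56.5 ± 3.46 CPM in control libraries (edgeR adjusted p = 0.6). Hpx, the heme carrier hemopexin, was at 0.449 ± 0.175 against 0.223 ± 0.137 CPM (edgeR adjusted p = 0.599).

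In the list of NRF2 targets and lipid peroxidation genes, 8 of 14 lay below 1 (median -0.018). Gclm, a subunit of the enzyme that starts glutathione synthesis, was at 59.3 ± 1.11 CPM in overexpression, against 53.5 ± 3.58 CPM in control libraries (edgeR adjusted p = 0.489). Slc7a11, the cystine importer, was at 77.4 ± 9.56 against 65.3 ± 7.68 CPM (edgeR adjusted p = 0.521), and Gpx4, which reduces lipid peroxides, at 93.4 ± 5.65 against 93.8 ± 4.57 CPM (edgeR adjusted p = 0.986). On the route of ferritin to the lysosome, 7 of 10 genes lay below 1 (median -0.053). The groups did not overlap for 4 of the 10 with overexpression lower, against 8.07% of all genes, and for 0 with overexpression higher, against 7.07%. In the other lists, 0 to 2 genes had separate groups with overexpression lower. Lamp1, a lysosomal membrane protein, was at 228 ± 8.68 CPM in overexpression, against 253 ± 3.81 CPM in control libraries (edgeR adjusted p = 0.423), and Tbk1, a kinase of selective autophagy, at 53.0 ± 1.96 against 56.9 ± 1.88 CPM (edgeR adjusted p = 0.623).

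**Figure D4:**
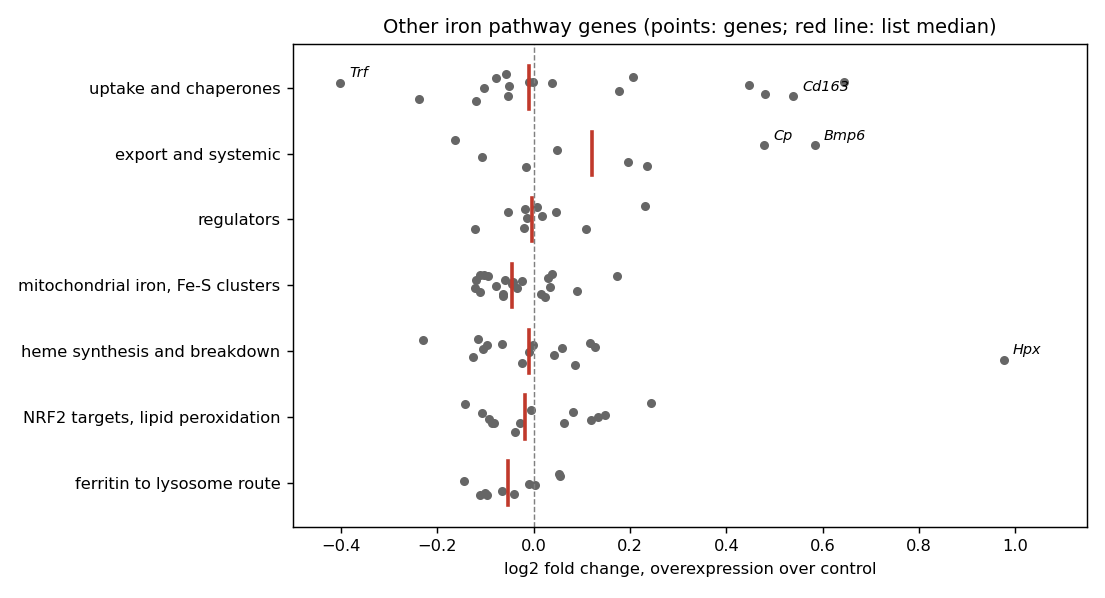
log2 fold change of overexpression over control for the tested genes of 7 iron pathway lists, one point per gene, with red lines at the list medians. The medians lie between -0.053 and 0.12, with Trf lowest and Hpx highest.

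Markers of other cell types were read beside the iron genes. In edgeR's test 0 of 49 markers were called and 12 had an unadjusted p under 0.05, against 9 and 1788 of 19354 genes. DESeq2 called 8 of 52 markers, against 103 of 35633 genes, and limma-voom called 0 of 49. The 8 were Gfap, 2 choroid plexus markers and 5 oligodendrocyte markers. Oligodendrocyte markers summed to 3541, 2998 and 3374 CPM in overexpression libraries, against 3763, 4729 and 4573 CPM in control libraries. All 7 of these markers had a fold below 1, against 49.6% of all genes tested. For 4 of them the groups did not overlap, against 8.07% of all genes with overexpression lower. The sum of all 7 markers in overexpression libraries averaged 75.9% of the control mean, where Fth1 stood at 81.0%, Tfrc at 83.6%, Hmox1 at 79.8% and Trf at 75.7%. Control replicate 1 was the lowest control library for oligodendrocyte markers, for Trf, for Tfrc and for Fth1, and the highest for Hmox1. Among overexpression libraries the order differed: replicate 2 was lowest for oligodendrocyte markers, Trf, Tfrc and Hmox1, and replicate 3 for Fth1. The part of oligodendrocyte content in these differences was not tested.

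Microglia markers summed to 298 to 355 CPM in overexpression and 307 to 338 CPM in control libraries, with 3 of 7 markers above 1. Astrocyte markers were at 1438 to 1562 CPM in overexpression and 1599 to 1763 CPM in control libraries, without overlap, with 4 of 5 markers below 1. Only Gfap, at 338, 328 and 401 CPM in overexpression, against 465, 525 and 533 CPM in control libraries, had groups that did not overlap. Slc1a3, the most abundant of the 5, overlapped, at 699, 660 and 680 CPM in overexpression, against 669, 675 and 724 CPM in control libraries. Over all genes tested, 49.6% had a fold below 1 and 8.07% had separate groups with overexpression lower. Markers of border macrophages, at 10.5 to 13.4 against 8.14 to 9.13 CPM, and of choroid plexus, at 45.9 to 723 against 23.1 to 47.8 CPM, had 4 of 5 and 6 of 6 markers above 1. Overexpression replicate 2 lay within the control range for the choroid plexus sum, and Cd163 is itself one of the border macrophage markers. Without overexpression replicate 1, which had the highest sum of both lists, the log2 fold change was 0.43 for Cp, 0.47 for Bmp6, 0.50 for Cd163 and -0.49 for Trf, and for the members Fth1, Tfrc and Hmox1 it was -0.31, -0.28 and -0.36. Endothelial markers were at 205 to 209 CPM in overexpression and 182 to 214 CPM in control libraries. Red blood cell markers, whose heme is a source of iron, were at 45.4 to 62.4 CPM in overexpression and 45.5 to 61.2 CPM in control libraries, and only 3 of the 6 passed the filter. No marker of any list was at 0 in all libraries, and their part in the values of the iron genes was not tested.

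**Figure D5:**
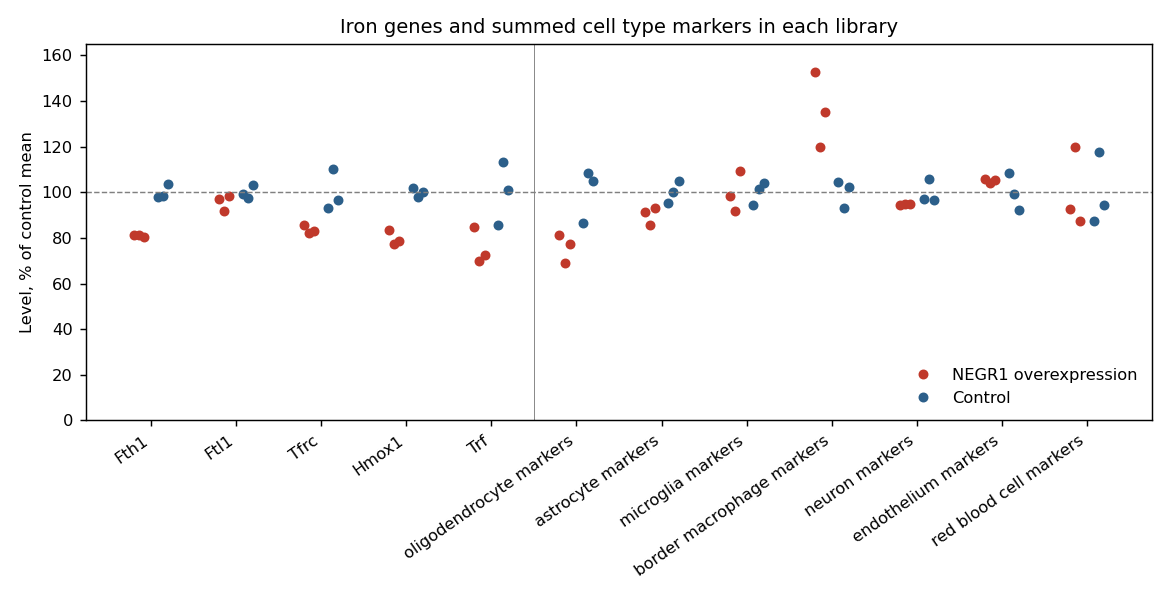
Level of 5 iron genes and of summed cell type markers in each library, as a percentage of the control mean (overexpression red, control blue). Fth1, Tfrc, Hmox1, Trf and the summed oligodendrocyte, astrocyte and neuron markers lie below all control libraries in overexpression. Border macrophage markers lie above all control libraries, while Ftl1 and microglia, endothelial and red blood cell markers overlap. Choroid plexus markers, at up to 2239% in overexpression replicate 1, are off this scale and not drawn.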

How the data were processed

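Libraries were strand-specific and made from poly(A) RNA, per the labels' protocols. The authors deposited raw counts for each Ensembl gene identifier. Per the submitters' processing notes, the tools were Trimmomatic 0.36, STAR 2.7.10 and featureCounts 2.0.3, with mm10 as well as GRCm39 listed as builds. Which build was counted, with which annotation and strand setting, and what was done with reads matching several genes, the sources used here do not say. Symbols came from GENCODE M21 (GRCm38) identifiers for 51948 of 56941 identifiers, and 3 list symbols through RefSeq synonyms.

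Counts were tested across all 19354 genes with edgeR 4.0.16 (quasi-likelihood, robust, TMM factors, default filter on low counts, group as the only term) in R 4.3.3, with Benjamini-Hochberg adjustment and a threshold of 0.05. CPM are on the TMM scale, SE came from the F statistic, and the test was checked on data with known changes. Every pair of libraries differed by more than sampling noise (chi-square per degree of freedom at least 4.29). Per the series' design text each sample came from its own mouse. The alternatives comprised RLE and upper quartile factors, DESeq2 1.42.0, limma 3.58.1 (voom with sample weights), other filters, a replicate block, added pseudogene counts and leaving out each library. The members and lists were chosen with earlier results of these data known. Genes named beyond the members are Negr1, ferritin pseudogenes with at least 10 counts, those most like Fth1, and of each iron list the 2 smallest p-values, with 6 fixed genes. Mbp, Mobp, Chgb, Hamp, Hamp2, Ftmt and the genes sharing sequence were named after their values were seen. Some genes that the rule names are not reported here.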

Additional observations from a re-analysis of the deposited data

How the results depend on the processing

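The direction of Fth1, Ftl1, Tfrc, Slc11a2, Ireb2, Aco1 and Hmox1 was the same in all 16 fits, the main one included, while Slc40a1 was lower in 12, Ncoa4 in 14 and Steap3 in 15. Over these fits the log2 fold change of Fth1 ran from -0.32 to -0.28. Genes called over the whole table numbered 9 in the main test, 103 with DESeq2, 304 without a filter on low counts, 5 with the stricter filter (1 CPM in 3 libraries) and 2 to 63 when each library was left out. Members called numbered 1 (Fth1) in the main test, 2 without a filter (Fth1 and Tfrc), 0 with the stricter filter and 0 to 1 when each library was left out. Other iron genes called numbered 0 in the main test, 3 with DESeq2, 4 without a filter (Slc7a11, Cp, Trf and Bmp6) and 0 to 1 when each library was left out. With the replicate number as a block, 26 genes, 0 members and 1 other iron gene (Cp) were called. Deviations of same-numbered libraries from their group means correlated at 0.017 to 0.023 across genes, so the numbers were not taken to pair the mice. The cause of these differences in calls was not tested. The size of difference that 3 mice per group can show was not measured for single members.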
